A study of Mus musculus with 5 samples.

Results

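The annexins are a family of proteins that bind phospholipid membranes when calcium rises. They were followed in epithelium taken by laser capture, of tumours in the intestine of Apc1638N mice and of normal intestine in wild-type C57Bl6/J mice. The members were 10 genes, Anxa1 to Anxa8, Anxa10 and Anxa11, taken with every probe set that the platform annotation assigns to them, out of 12393 genes with a probe set of their own. Of the 10 genes, 9 had probe sets that name 1 gene only, 18 probe sets in all. Anxa11 had no such probe set, because its sole probe set is also annotated to the predicted genes Gm2274 and Gm2260. The genes were selected on the log2 signals of these same arrays, 3 tumours against 2 wild types, so their levels and differences are given as a description, with no p-value. A count of members past a threshold is likewise no test of them.

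The 3 tumours (tumours 16, 18 and 2) came from Apc1638N mice on the C57Bl6/J background, which carry a truncating germline mutation of the Wnt pathway scaffold gene Apc. The 2 reference samples (wild types 36 and 62) were normal intestinal epithelium of C57Bl6/J mice. All animals were males of 8 months kept under specific-pathogen-free conditions. Neither the segment of intestine nor the animal behind each sample is given in the labels. The p-values below therefore reflect the scatter among 5 samples that may not be 5 animals, and precision is limited by that small number. The Apc mutation is carried by every cell of the mutant mice, stroma included, and no normal epithelium of mutant mice was analysed here. All 10 epithelial markers had signal in both groups, but their levels were not the same. In limma's test over all probe sets, 2 rose in tumours, the keratin genes Krt18 (by 2.44, SE 0.16, adjusted p = 0.00651) and Krt19 (by 1.20, SE 0.25, adjusted p = 0.0467). The microvillus gene Vil1 fell by 1.26 (SE 0.14, adjusted p = 0.0140), and 7 did not pass. Among those 7 were Krt20, with 10.03 to 11.26 in tumours, against 12.02 to 12.58 in wild types, and Epcam, with 10.79 to 11.20 in tumours, against 11.42 to 11.56 in wild types. RNA from captured tissue is a bulk sample, in which fewer cells of a type and less RNA per cell cannot be told apart.

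Annexins share a core of repeated domains that holds the calcium sites and a variable N-terminal tail that binds partner proteins. In epithelia they are known for linking the cortical actin cytoskeleton to the membrane, for vesicle traffic, for resealing of torn plasma membrane and, in the case of annexin A1, for ending inflammation and promoting wound closure. Annexin A2 pairs with S100A10, and annexin A13 is typical of the absorptive epithelium of the small intestine.

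Because several members differed in the same direction, the promoter windows of the 3 genes with the largest differences and of Anxa2, the member with the best-known surface complex, are shown. Windows run from 250 bases before to 50 bases after the annotated start and come from RefSeq on build GRCm38.p6, written 5′ to 3′ on the gene's strand. They are chr19:20390622-20390921 (minus strand) for Anxa1, chr8:62123144-62123443 (minus strand) for Anxa10, chr14:34085729-34086028 (plus strand) for Anxa8 and chr9:69453433-69453732 (plus strand) for Anxa2. Capitals mark matches to 4 motifs, searched on both strands: TGANTCA of AP-1, CTTTGAT of TCF/LEF, TATAAA of the TATA box and GATAAG of GATA factors.
Anxa1: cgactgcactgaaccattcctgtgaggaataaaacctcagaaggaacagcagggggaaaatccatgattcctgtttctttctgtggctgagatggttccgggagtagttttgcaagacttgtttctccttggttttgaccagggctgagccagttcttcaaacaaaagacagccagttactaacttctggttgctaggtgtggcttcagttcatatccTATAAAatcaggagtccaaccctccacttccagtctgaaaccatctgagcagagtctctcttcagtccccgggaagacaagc
Anxa10: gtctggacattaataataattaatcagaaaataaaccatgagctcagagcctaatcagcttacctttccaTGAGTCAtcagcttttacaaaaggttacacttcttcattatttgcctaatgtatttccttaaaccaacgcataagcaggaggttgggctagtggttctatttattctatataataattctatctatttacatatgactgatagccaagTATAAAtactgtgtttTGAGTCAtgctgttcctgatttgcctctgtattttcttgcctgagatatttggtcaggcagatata
Anxa8: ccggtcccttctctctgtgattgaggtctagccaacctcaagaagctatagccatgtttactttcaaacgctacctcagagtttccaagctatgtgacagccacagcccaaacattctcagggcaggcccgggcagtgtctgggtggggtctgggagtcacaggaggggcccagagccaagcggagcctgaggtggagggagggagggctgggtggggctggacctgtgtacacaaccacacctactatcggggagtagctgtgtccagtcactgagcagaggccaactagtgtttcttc
Anxa2: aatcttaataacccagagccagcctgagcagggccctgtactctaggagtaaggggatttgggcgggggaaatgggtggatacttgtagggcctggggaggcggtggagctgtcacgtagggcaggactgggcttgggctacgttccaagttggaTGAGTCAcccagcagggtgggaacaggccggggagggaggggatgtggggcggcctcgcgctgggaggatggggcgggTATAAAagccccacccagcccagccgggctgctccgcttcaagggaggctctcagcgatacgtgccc
The Anxa10 window held 2 AP-1 matches, which began 180 and 16 bases before the start, and a TATA box match 32 bases before it. In the Anxa1 window a TATA box match began 32 bases before the start, and the Anxa2 window held an AP-1 match at 95 bases and a TATA box match at 17 bases before it. The Anxa8 window held no match to these letters. Among all 32851 windows of this length, 7.81% held the AP-1 letters, 13.6% the TATA box letters, 7.44% the GATA letters and 3.73% the TCF/LEF letters, the last of which matched no annexin window. The one GATA match lay 42 bases before the start in a window of Anxa4. Windows were found for 8 of the 10 members, with Anxa3 and Anxa6 named only. A match describes the letters and not a bound site.

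The member genes split into those far higher in tumours and those close to their wild-type level. In the brightest probe set of each of the 9 genes, Anxa1, Anxa10, Anxa8, Anxa3 and Anxa5 exceeded wild type by more than 1 on the log2 scale, where 4.16% of all genes did. Anxa2, Anxa6 and Anxa7 were higher by less, and Anxa4 lay within the wild-type range in part of the tumours. All tumours lay above both wild types in 8 of 9 genes, against 27% of all genes. The same held for 10 of the 18 probe sets, where 25.3% of all probe sets were separated in that direction and 47.9% in either. The median difference of the 9 genes was 1.54, against 0.0040 over all 12393 genes.

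**Figure D1:**
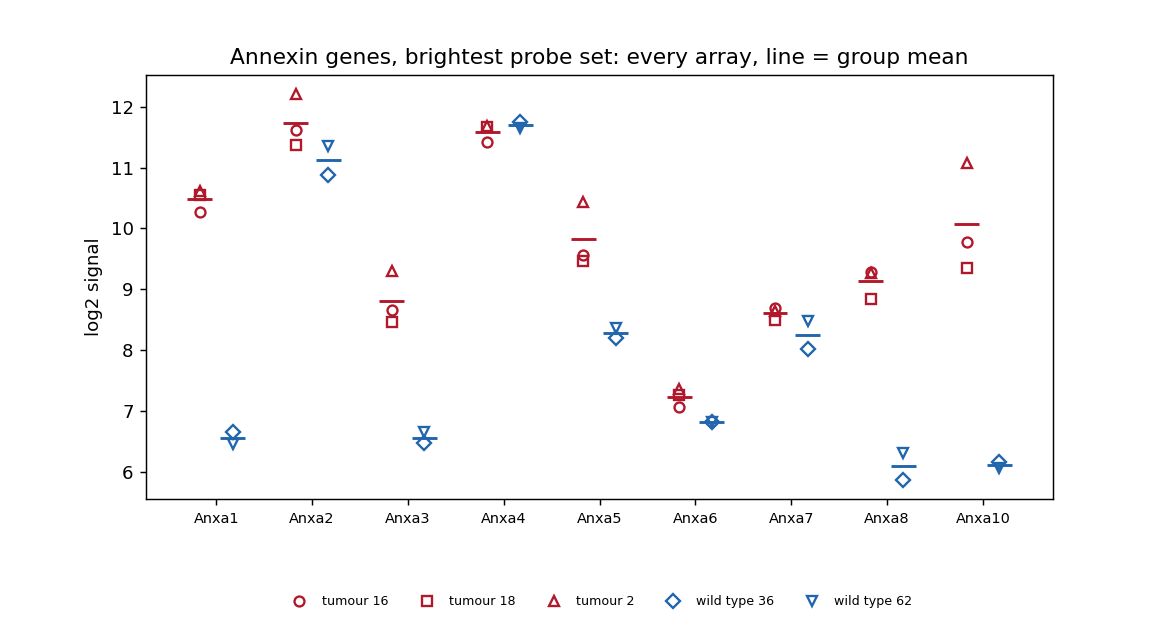
Log2 signal (vertical axis) of the brightest probe set of each measured annexin gene on every array. Red symbols are tumours, blue symbols wild types, and short lines group means. Anxa1, Anxa3, Anxa5, Anxa8 and Anxa10 leave a wide gap between the groups, while Anxa4 values of the groups overlap.

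Anxa1 encodes annexin A1, a glucocorticoid-induced protein that is secreted and acts on formyl peptide receptors. Its log2 signal was 10.27, 10.55 and 10.61 in tumours 16, 18 and 2, against 6.65 and 6.46 in wild types 36 and 62. The groups lay far apart, with 3.62 between the lowest tumour and the highest wild type. The means were 10.48 ± 0.18 (SD, n = 3) in tumours and 6.55 ± 0.13 (SD, n = 2) in wild types, a difference of 3.92 or 15.2-fold. The gap was many times the spread inside either group, and the wild-type values stood above the 25th percentile of every array (6.07 at most).

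Anxa10 encodes annexin A10, an atypical member that is best known from gastric epithelium. Its brighter probe set, 1449426_a_at, gave 9.78, 9.35 and 11.07 in tumours 16, 18 and 2, against 6.16 and 6.06 in wild types 36 and 62. Tumour 2 stood well above the other tumours, and the groups did not overlap. The means were 10.07 ± 0.89 (SD, n = 3) in tumours and 6.11 ± 0.07 (SD, n = 2) in wild types, a difference of 3.96. Both wild-type values lay above but close to the 25th percentile of their arrays (6.04 to 6.07 over all arrays). The other probe set, 1430443_at, gave 7.52, 7.46 and 8.59 in those tumours, against 5.06 and 4.96 in the wild types, again with tumour 2 highest. Its difference was 2.84, and no fold is given because both of its wild-type values lay below the 25th percentile of their arrays.

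Anxa8 encodes annexin A8, a member found mainly in stratified epithelia. Probe set 1417732_at gave 9.28, 8.84 and 9.27 in tumours 16, 18 and 2, against 5.87 and 6.31 in wild types 36 and 62. All tumours were higher than both wild types, by a mean of 3.04, and no fold is given because wild type 36 lay below the 25th percentile of its array. The second probe set, 1425789_s_at, whose suffix marks a design shared between transcripts of related sequence, was much flatter. It gave 6.49, 6.42 and 6.64 in tumours, against 5.71 and 5.98 in wild types, a difference of 0.67. Both of these wild-type values lay below the 25th percentile of their arrays. The probe sets thus had the same direction and unequal size, and the mean of both differed by 1.86.

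Anxa3 encodes annexin A3, which is abundant in neutrophils and in several epithelia. It gave 8.67, 8.46 and 9.30 in tumours 16, 18 and 2, against 6.47 and 6.66 in wild types 36 and 62. The groups did not overlap, tumour 2 was the highest, and the mean difference was 2.25, or 4.74-fold. Of 8 measured neutrophil markers, 0 passed limma's test in either direction, where 20.4% of all genes passed. At an unadjusted p under 0.05, 0 were higher and 2 lower, Elane (-0.14) and Ngp (-0.11). All tumours lay above both wild types in 1 marker, S100a8 (by a mean of 1.32, adjusted p = 0.158), and below both in 3. The median difference was -0.09. Summed signals were 861 to 1053 in tumours, against 902 to 905 in wild types. The part of neutrophils in the Anxa3 values was not tested.

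Anxa5 encodes annexin A5, the protein used in the laboratory to stain phosphatidylserine on dying cells. It gave 9.57, 9.47 and 10.43 in tumours 16, 18 and 2, against 8.20 and 8.36 in wild types 36 and 62. Every tumour lay at least 1.10 above the wild types, with tumour 2 well above the other tumours. The means were 9.82 ± 0.53 (SD, n = 3) in tumours and 8.28 ± 0.12 (SD, n = 2) in wild types, a difference of 1.54 or 2.91-fold.

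Anxa2 encodes annexin A2, an abundant cortical protein that, paired with S100A10, gathers plasminogen and its activator at the cell surface. Its bright probe set, 1419091_a_at, gave 11.62, 11.37 and 12.21 in tumours 16, 18 and 2, against 10.88 and 11.36 in wild types 36 and 62. Tumour 18 and wild type 62 all but coincided, 0.014 apart. The mean difference was 0.62, and it ranged from 0.38 to 0.85 with 1 array left out in turn. The dimmer probe sets 1437692_x_at and 1437691_at differed by 0.21 and 0.03, with groups that touched in both. Probe set 1437691_at held 3 distinct values over the 5 arrays and lay below the 25th percentile on all of them.

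Anxa4, which encodes an annexin of the apical and secretory regions of epithelial cells, was bright on all arrays and hardly differed. Probe set 1421223_a_at gave 11.42, 11.66 and 11.69 in tumours 16, 18 and 2, against 11.76 and 11.64 in wild types 36 and 62. The groups overlapped, and the mean difference of -0.11 was within the SD of the tumours (0.15). The second probe set, 1424176_a_at, differed by -0.04.

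Anxa6 encodes annexin A6, which has a doubled core and is known from endosomes. Its brightest probe set gave 7.07, 7.27 and 7.36 in tumours 16, 18 and 2, against 6.82 and 6.82 in the wild types. The difference was small, 0.41, but no tumour reached down to the wild types. The other probe sets, 1429246_a_at and 1429247_at, differed by 0.02 and 0.0025, and each held 3 distinct values over the 5 arrays. Probe set 1429246_a_at lay below the 25th percentile on all 5 arrays.

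Anxa7, which encodes an annexin of secretory vesicles, was uneven between its probe sets. Probe set 1438764_at gave 8.69, 8.50 and 8.64 in tumours 16, 18 and 2, against 8.01 and 8.47 in wild types 36 and 62, a difference of 0.37. The other probe sets overlapped between the groups, with 0.33 for 1416138_at and -0.13 for 1416137_at. In all 3 probe sets wild type 62 was the higher wild type, by 0.46 to 0.93, so the spread inside the wild types was as large as the difference. The probe set shared by Anxa11, Gm2274 and Gm2260 (1418468_at) gave 7.41, 7.15 and 7.23 in tumours, against 6.98 and 7.02 in wild types, and its difference of 0.26 cannot be assigned to Anxa11.

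**Figure D2:**
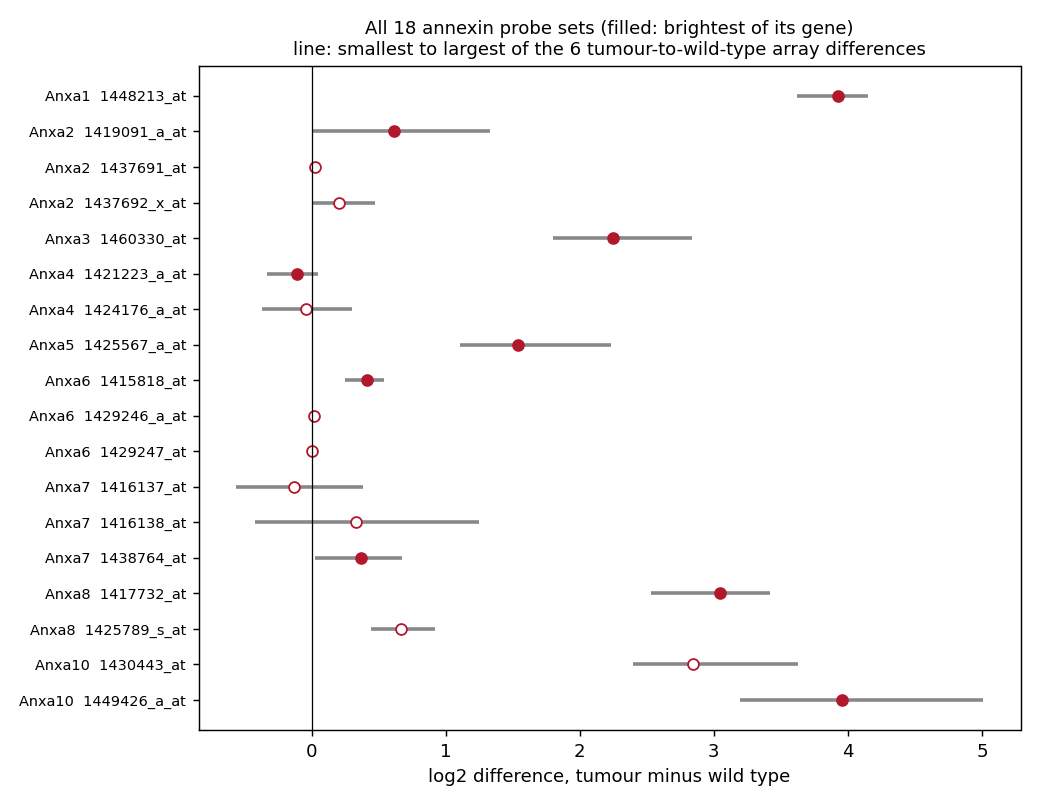
Log2 difference, tumour minus wild type, of all 18 annexin probe sets (circles, filled for the brightest of its gene). Grey lines run from the smallest to the largest of the 6 differences between a tumour and a wild-type array. Probe sets of Anxa8 and Anxa10 share a direction but not a size, and those of Anxa4 and Anxa7 lie on both sides of 0 or close to it.

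As a description of the same values that chose the members, 6 of the 18 annexin probe sets lay past a threshold of 0.05 on limma's adjusted p over all 22626 probe sets as higher and 0 as lower, also 0 lower at an unadjusted p under 0.05. Of all probe sets, 9.58% did so as higher, 8.72% as lower and 18.3% in either direction. Because the choice used this contrast, the count is no test of the annexins, and nothing is read from it or from how it moves with 1 array left out. The differences were also recomputed without each array in turn. Over these 5 fits that of Anxa1 ranged from 3.83 to 4.03, Anxa10 (1449426_a_at) from 3.45 to 4.31, Anxa8 (1417732_at) from 2.82 to 3.27, Anxa3 from 2.00 to 2.42 and Anxa5 from 1.24 to 1.72.

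The tumours were not alike in their annexin levels. Tumour 2 had the highest signal of the 3 tumours in 7 of the 9 genes, where it did so in 30.4% of all genes. In Anxa7 and Anxa8 tumour 16 was the highest, and in Anxa1 tumours 18 and 2 were almost level. The excess of tumour 2 over the mean of tumours 16 and 18 was 1.50 for Anxa10, 0.91 for Anxa5, 0.74 for Anxa3 and 0.71 for Anxa2, but 0.20 for Anxa1 and for Anxa8. Tumour 18 was the lowest tumour for Anxa2, Anxa3, Anxa5, Anxa7, Anxa8 and Anxa10. These are single tumours, so no test of the order was possible.

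Fibroblast genes also differed among the tumours. Of 10 measured fibroblast markers, 1 passed as higher in tumours (Dcn, which encodes the matrix proteoglycan decorin) and 0 as lower. The shares over all genes were 10.5% and 9.92%. At an unadjusted p under 0.05, 6 were higher and 0 lower. In 9 of the 10 all tumours lay above both wild types, against 27% of all genes. The median difference was 1.23. The mean log2 signal of the list was 8.21, 8.97 and 7.62 in tumours 16, 18 and 2, against 7.09 and 6.74 in wild types 36 and 62. Its summed signal was 2539 to 10814 in tumours, against 1246 to 1630 in wild types. Tumour 18 had the highest and tumour 2 the lowest fibroblast signal of the tumours. In the mean of this list all tumours lay above both wild types, as they did in 8 of the 9 annexin genes. The part of fibroblasts in the annexin values was not tested. The mean of the 10 epithelial genes was 10.89, 10.70 and 11.04 in tumours 16, 18 and 2, against 10.76 and 10.92 in wild types, an average over the 2 genes that rose, the 1 that fell and the 7 that did not pass.

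**Figure D3:**
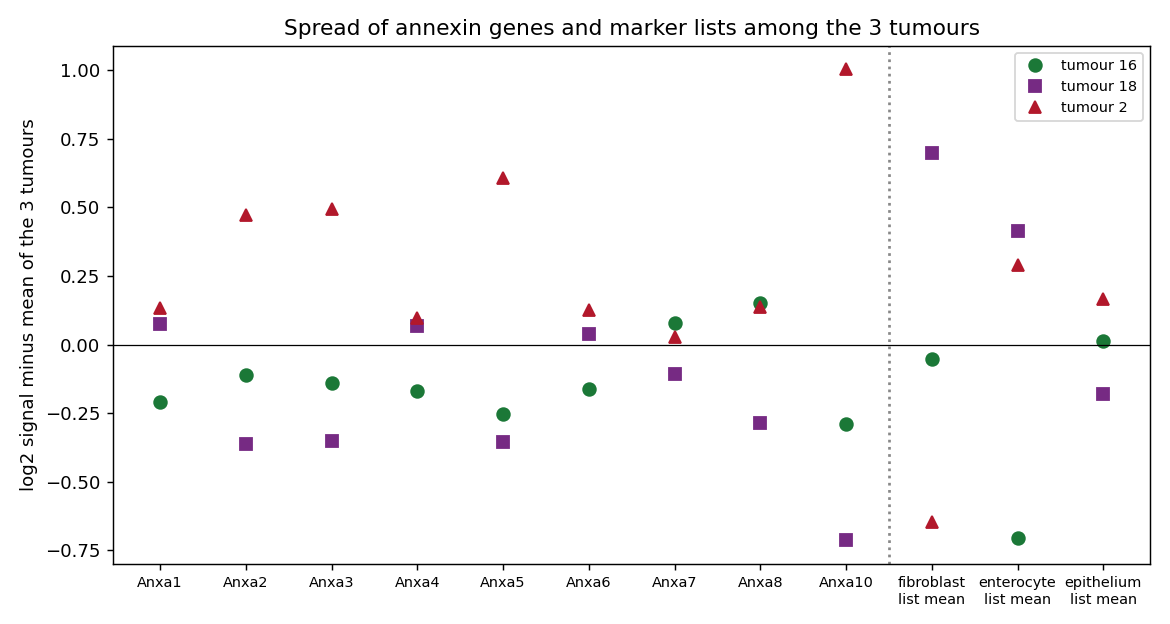
Log2 signal of each tumour minus the mean of the 3 tumours, for the brightest probe set of each annexin gene and, right of the dotted line, for the mean of 3 marker lists. Tumour 2 lies highest for 7 of the 9 annexin genes, and the fibroblast list has the widest range of the 3 lists.

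Markers of other cells that can hold annexins gave these counts. Of 9 macrophage markers 1 (Cd14) passed as higher and 0 as lower, with a summed signal of 2119 to 3521 in tumours, against 1606 to 2359 in wild types. Of 7 endothelial markers 0 passed limma's test in either direction, 1 being higher at an unadjusted p under 0.05, and the sums were 640 to 753 in tumours, against 642 to 699 in wild types. Of 6 smooth muscle markers 1 (Acta2) passed as higher, with sums of 1579 to 1819 in tumours, against 882 to 1089 in wild types. Among lymphocyte genes, 5 of 9 T cell markers passed as lower and 0 as higher. Of 6 B and plasma cell markers 1 passed as higher (Sdc1, by 1.44) and 1 as lower (Jchain, by 2.99). Igha differed by -1.99 and did not pass (adjusted p = 0.0537). The sums of this list were 3721 to 6141 in tumours, against 13372 to 24992 in wild types. Of 2 red blood cell markers 0 passed, with 1 higher at an unadjusted p under 0.05. Of the absorptive enterocyte markers, 7 of 11 passed as lower and 0 as higher, with a median of -3.06. Over all genes, 10.5% passed as higher, 9.92% as lower and 20.4% in either direction. The part of any of these cell types in the annexin values was not tested.

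Of the annexins outside the member list 2 were measured, and neither passed the test. Anxa13, the annexin of the absorptive epithelium, gave 10.38, 8.89 and 10.93 in tumours 16, 18 and 2, against 11.14 and 10.98 in wild types 36 and 62. Tumour 2 almost reached the wild types and tumour 18 lay far below. The difference was -0.99 (SE 0.67, adjusted p = 0.375 in limma) and became -0.40 without tumour 18, with adjusted p-values from 0.245 to 0.670 over the fits that left out 1 array. Anxa9, which encodes an atypical annexin with little calcium binding, gave 6.59, 6.71 and 6.48 in tumours 16, 18 and 2, against 6.22 and 6.37 in wild types. It differed by 0.30 (SE 0.09, adjusted p = 0.100 in limma).

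Of 8 measured genes for proteins that bind annexins, 1 rose, 1 fell and 6 did not pass, with a median difference of 0.08. Over all genes 10.5% passed as higher and 9.92% as lower, so these counts were near the background. S100a6 encodes calcyclin, a calcium sensor that binds annexins A2 and A11. It gave 11.51, 11.18 and 11.57 in tumours 16, 18 and 2, against 7.26 and 8.19 in wild types 36 and 62. All tumours lay far above the wild types, and S100a6 rose by 3.69 (SE 0.32, adjusted p = 0.00908 in limma). Its call was lost without tumour 16 (0.0566) and, like that of every probe set, without wild type 62.

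S100a10, the partner of annexin A2, did not pass in either probe set. Probe set 1456642_x_at gave 10.20, 10.04 and 10.67 in tumours 16, 18 and 2, against 10.04 and 9.78 in wild types, with adjusted p = 0.312. Probe set 1416762_at gave 9.41, 8.91 and 10.03 in those tumours, against 9.33 and 9.74 in the wild types, with adjusted p = 0.902. The sole probe set of S100a11, the partner of annexin A1, is annotated to several genes and gives no value here. Pdcd6, which encodes the calcium-binding protein ALG-2 that binds annexins A7 and A11, gave 9.23, 9.52 and 9.79 in tumours, against 10.45 and 10.91 in wild types. It fell by 1.17 (SE 0.23, adjusted p = 0.0400 in limma), and the call was lost without any single array (adjusted p from 0.0569 to 0.169).

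In the plasmin system, which annexin A2 with S100A10 concentrates at the cell surface, 1 of 7 measured genes rose and 1 fell, with a median of -0.01, again near the 10.5% and 9.92% of all genes. Plat, the tissue plasminogen activator, gave 8.29, 9.17 and 9.10 in tumours 16, 18 and 2, against 7.30 and 6.96 in wild types 36 and 62. It rose by 1.72 (SE 0.33, adjusted p = 0.0369 in limma). Its call was kept without tumour 16 (0.0401) and lost in the other 4 fits with 1 array fewer, where the adjusted p reached 0.180. Plgrkt, a plasminogen receptor of the cell membrane, gave 6.43, 6.46 and 6.46 in tumours, against 7.74 and 8.03 in wild types. It fell by 1.44 (SE 0.09, adjusted p = 0.00651 in limma). Its call was lost without wild type 62 only, as was that of every other probe set.

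**Figure D4:**
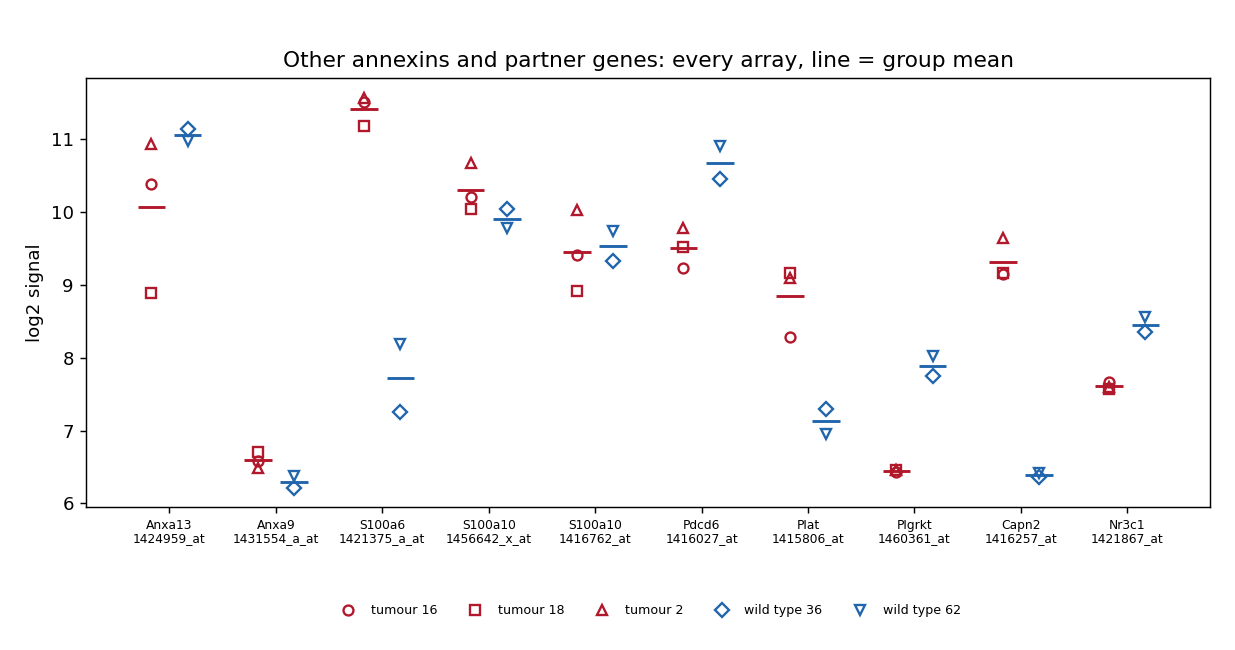
Log2 signal of Anxa13, Anxa9 and genes that work with annexins on every array (red, tumours; blue, wild types; short lines, group means). S100a6, Plat and Capn2 were higher in tumours, Pdcd6, Plgrkt and Nr3c1 lower, and the groups overlap in both S100a10 probe sets.

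Of 8 measured genes of the annexin A1 receptors and the glucocorticoid axis, 0 rose in limma's test, 1 fell and 7 did not pass. Their median difference was -0.01. At an unadjusted p under 0.05, 3 were higher: Pla2g2a by 1.89 (adjusted p = 0.0523), Pla2g4a by 0.83 (0.0760) and Dusp1 by 0.69 (0.126). In these 3 genes all tumours lay above both wild types. At the same level 2 were lower, Nr3c1 and Tsc22d3. Of all genes, 10.5% passed as higher and 9.92% as lower. Nr3c1, the glucocorticoid receptor, gave 7.67, 7.58 and 7.60 in tumours 16, 18 and 2, against 8.35 and 8.55 in wild types 36 and 62. It fell by 0.84 (SE 0.08, adjusted p = 0.00938 in limma). The call was lost without tumour 16 (0.0514) and, like that of every probe set, without wild type 62. A second probe set, 1460303_at, fell by 1.37 (adjusted p = 0.0105). The third, 1421866_at, differed by -0.03 (adjusted p = 0.571) and lay below the 25th percentile on all 5 arrays. Tsc22d3, a glucocorticoid-induced gene, counted as not passing through its brightest probe set, 1425557_x_at (-0.22, adjusted p = 0.119). Its other probe sets, 1425281_a_at and 1420772_a_at, both fell, by 0.67 (adjusted p = 0.0270) and 0.79 (adjusted p = 0.0476). Signal lay below the 25th percentile in tumour 16 for 1425281_a_at and in all 3 tumours for 1420772_a_at. Fpr2, a receptor of annexin A1, gave 6.59, 6.53 and 6.35 in tumours, against 6.53 and 6.53 in wild types. It differed by -0.04 (adjusted p = 0.774), with values that overlapped. Fkbp5 and Ptgs2 differed by -0.03 and 0.0019 in their brightest probe sets.

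Of 14 measured genes for membrane repair and calcium-dependent membrane binding, 3 rose, 0 fell in limma's test and 11 did not pass. Their median was 0.01. The shares over all genes were 10.5% higher and 9.92% lower. At an unadjusted p under 0.05, 5 of the 14 were higher and 2 lower. Capn2, the catalytic subunit of calpain 2, a calcium-activated protease that trims the cytoskeleton during resealing, led the genes that rose. It gave 9.15, 9.17 and 9.64 in tumours 16, 18 and 2, against 6.36 and 6.42 in wild types 36 and 62. Capn2 rose by 2.93 (SE 0.18, adjusted p = 0.00620 in limma), 7.61-fold. Its call was lost without wild type 36 and, like that of every probe set, without wild type 62. Its small regulatory subunit Capns1 rose by 0.67 (SE 0.12, adjusted p = 0.0330), a call lost without any single array. Myof, the membrane repair protein myoferlin, rose by 0.40 (SE 0.07, adjusted p = 0.0344). That call was kept without tumour 18 (0.0353) and lost without each other array. The other probe set of Myof differed by 0.05 (adjusted p = 0.575) and lay below the 25th percentile on all 5 arrays.

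Profiles closest to those of 3 members were sought over the 5 arrays by the root mean square difference between mean-centred log2 signals, as a description. For Anxa1 they were Cd44, the hyaluronan receptor (0.27), Slc44a2, a choline transporter (0.33), and Mmp7, the matrix protease matrilysin (0.35). For Anxa10 they were Ctse, the gastric aspartic protease cathepsin E (0.51), Anxa1 itself (0.53) and S100a6 (0.58). Ctse had the same order of tumours as Anxa1, with 11.56, 11.92 and 12.50 in tumours 16, 18 and 2, against 7.34 and 7.32 in wild types. For Anxa4, the member with the most negative difference, the nearest were Cd48, St6galnac2 and 4933417A18Rik, whose profiles were as flat as its own. Cd48 and 4933417A18Rik lay below the 25th percentile on all 5 arrays. Of the 8 measured gastric and Brunner gland genes, which exclude Anxa10, 2 rose in limma's test (Ctse and the gastrokine gene Gkn1). None fell, and the median was 0.24. At an unadjusted p under 0.05, 4 were higher and 0 lower. All tumours lay above both wild types in 5 of the 8, against 27% of all genes. Over all genes 10.5% passed as higher and 9.92% as lower. The 6 that did not pass differed little or unevenly: Tff2 by 0.71 with overlapping groups, Tff1 by 0.32 and Gkn2 by 0.17. Muc5ac differed by 0.06, Cldn18 by 0.05 and Pgc by 0.01.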

How the data were processed

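Expression was measured on 5 Affymetrix arrays of laser-captured epithelium, 3 of tumours and 2 of wild types, grouped by the titles in the labels. The authors deposited log2 values for 22690 probe sets, a scale read from their range of 3.38 to 14.3. Per the submitters' processing notes the values were made in affy; how they were summarized, background-corrected and normalized is not given in the sources used here. Array medians lay between 6.81 and 6.87, so values were used as deposited. The 64 control probe sets were left out. GEO's platform annotation gave 1 symbol to 20380 probe sets, several to 691 and none to 1555, and 0 of the 20351 symbols matched by Entrez identifier differed from RefSeq's table of GRCm38.p6. In lists a gene stands for its brightest single-symbol probe set.

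Differences are tumour minus wild type, tested in R 4.3.3 by limma 3.58.1 (functions lmFit and eBayes, two-sided, Benjamini-Hochberg over 22626 probe sets, threshold 0.05), with limma's standard error (SE). The SD is that of each group. The 5 arrays can be split in 10 ways, so the smallest exact permutation p is 0.1. Summed signals are sums of antilogged values. In 10 simulated data sets of 5 arrays, each of 22626 probe sets with 200 changed, the test found 67.3% of the 2-fold and 89.7% of the 4-fold changes. It made 9.5 false calls on average. Spreads were drawn at random from the nonzero spreads of all probe sets, whatever their signal, and no values were tied. In the data 2594 probe sets were tied in a group and 4139 passed, so these rates need not hold there.

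The members, gene lists and tests were chosen with earlier results of these data known, and the motifs after the values were seen. Named genes are all members, other annexins, up to 4 passing genes per partner list, S100a6 and S100a10, up to 2 per marker list and the 3 nearest profiles of Anxa1, Anxa10 and the member with the most negative difference. Further probe sets, Fpr2 and other non-passing genes of the annexin A1 list, and markers that complete a count were named after values were seen. Alternatives were other scalings, filters, variance models, probe set rules and each array left out.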

Additional observations from a re-analysis of the deposited data

How the results depend on the processing

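No paired analysis was possible because the tumours came from Apc1638N mice and the normal samples from wild-type mice. The brightest probe sets of Anxa1, Anxa2, Anxa3, Anxa5, Anxa6, Anxa7, Anxa8 and Anxa10 stayed higher in tumours under all 13 alternatives. That of Anxa4 stayed lower. Most of these outcomes were fixed in advance. Filters and variance models leave the difference of a kept probe set unchanged. In the higher genes all tumours lay above both wild types, so leaving out or weighting arrays could not reverse the sign. Averaging gave a value of the gene and not of its brightest probe set. Of the other probe sets, some changed sign under at least 1 alternative. They were 1437691_at of Anxa2, 1424176_a_at of Anxa4, 1429246_a_at and 1429247_at of Anxa6 and 1416137_at and 1416138_at of Anxa7. Averaging a gene's probe sets lowered the difference of Anxa8 to 1.86, Anxa10 to 3.40, Anxa2 to 0.28 and Anxa6 to 0.14. These averages include probe sets with signal below the 25th percentile. For 1437691_at of Anxa2 and 1429246_a_at of Anxa6 this held on all 5 arrays. For 1425789_s_at of Anxa8 and 1430443_at of Anxa10 it held in both wild types. Leaving out 1 array in turn gave, as a description only, 0 to 6 annexin probe sets past the threshold against 6 with all arrays, and 0 to 3424 of all probe sets against 4139. It gave 0 to 1 annexin-binding genes against 2, 0 to 2 plasmin system genes against 2, 0 to 2 annexin A1 pathway genes against 1 and 0 to 2 membrane repair genes against 3. The counts of 0 in limma came without wild type 62, where 6682 of all probe sets, 7 annexin probe sets and 3 binding, 2 plasmin system, 2 annexin A1 pathway and 6 membrane repair genes had an unadjusted p under 0.05. Counts were also 0 without tumour 16 for binding (2 unadjusted) and annexin A1 pathway genes (3), and without wild type 36 for membrane repair genes (9). Dropping in addition the probe sets with tied values, an alternative added after seeing the data, changed these 5 fits to 2 to 7 annexin probe sets. Of all probe sets they then called 2288 without tumour 16, 2697 without tumour 18, 4790 without tumour 2, 2435 without wild type 36 and 1703 without wild type 62. They gave 1 to 2 binding, 1 to 2 plasmin system, 1 to 3 annexin A1 pathway and 1 to 3 membrane repair genes. The annexin A1 pathway count was 2 with quantile normalization, median centring, trend and robust variances, probe sets under the 40th percentile left out or shared probe sets left out. It was 3 with averaged probe sets or with tied probe sets left out. The membrane repair count was 5 with probe sets under the 40th percentile left out, and the plasmin system count was 1 with array weights. The cause of these moves was not tested. Signals below or close to the 25th percentile of an array, as for Anxa8 and both Anxa10 probe sets in wild types, limit the size of a difference.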
